A study of Heterocephalus glaber and Mus musculus with 9 samples.

Results

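The insulin-like growth factor axis was examined in the spleen through 10 genes chosen by name: the ligand gene Igf1, the receptor genes Igf1r, Igf2r, Insr and Ghr, the receptor substrates Irs1 and Irs2, and the binding proteins Igfbp3, Igfbp4 and Igfbp7. All 10 were found in the table of 12946 genes. Spleens came from 3 C57Bl/6N mice labelled WT (wild type) and 6 naked mole-rats (NM-Rs), with 1 library per animal, and the labels name normal housing and no treatment for any animal. The NM-Rs had either a small spleen (ssNM-R, numbered 2, 3 and 6) or an enlarged spleen (lsNM-R, numbered 1, 4 and 5), and the question was whether the genes differ between species and between these cohorts. The mice were male and 2 months old. The ssNM-Rs were male and aged 30, 26 and 23 months, and the lsNM-Rs were aged 24, 29 and 23 months, with lsNM-R 4 the only female. Species, age, housing temperature, genome and gene models all differ between mice and NM-Rs, so that their parts in a difference cannot be told apart. Nothing in the labels says whether animals of a cohort shared a colony, and the p-values measure the spread between these 9 spleens.

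Growth hormone from the pituitary binds its receptor on the liver and other tissues and induces Igf1, whose product circulates bound to IGF binding proteins and is also made locally by macrophages and stromal cells. At the target cell IGF-1 activates the tyrosine kinase IGF1R, which, like the insulin receptor, signals through the IRS adaptors to PI3K, AKT, FOXO and mTOR. The axis is best known for body growth, and for the long lives of mice in which it is weakened.

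Values are normalized counts, that is, the reads of a gene over the size factor of its library. They are not divided by gene length, and reads were counted against the gene models of each species. Each library held between 7815326 and 18387599 reads in the 12946 genes. Tests were made on log2(normalized count + 1) with limma over all genes, with a Benjamini-Hochberg adjusted p under 0.05 as the threshold, and folds are ratios of group means. The log2 fold change (log2FC) of NM-R over mouse is given with its standard error (SE). Where NM-R is written without a cohort, both cohorts were used with equal weight. Spleens are a mixture of cells, and in bulk RNA fewer cells of a type and less RNA per cell cannot be told apart.

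Compared to mice, 4 of the 10 genes were higher in NM-R spleens (Ghr, Igf1r, Igf2r and Irs2), 3 were lower (Igf1, Igfbp4 and Insr), and Irs1, Igfbp3 and Igfbp7 did not pass the threshold. Of all genes, 39.7% were higher and 38.8% lower, or 78.5% in either direction, so that the 70% of the axis genes that passed is not above the share of the whole table. All 6 NM-R spleens lay above all 3 mice for 4 genes and below them for 2 genes, where this held for 36.4% and 36.2% of all genes. Against mice, ssNM-R had 4 members higher and 3 lower (38.0% and 37.5% of all genes), and lsNM-R had 4 higher and 2 lower (38.1% and 37.0%). The median log2 fold change of the 10 genes was 0.14, and that of all genes was 0.0097. What set Igf1 and Ghr apart from the other members was size, at 10.2-fold lower and 7.11-fold higher, respectively. No member passed the threshold between the NM-R cohorts, and neither did any other gene of the table.

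**Figure D1:**
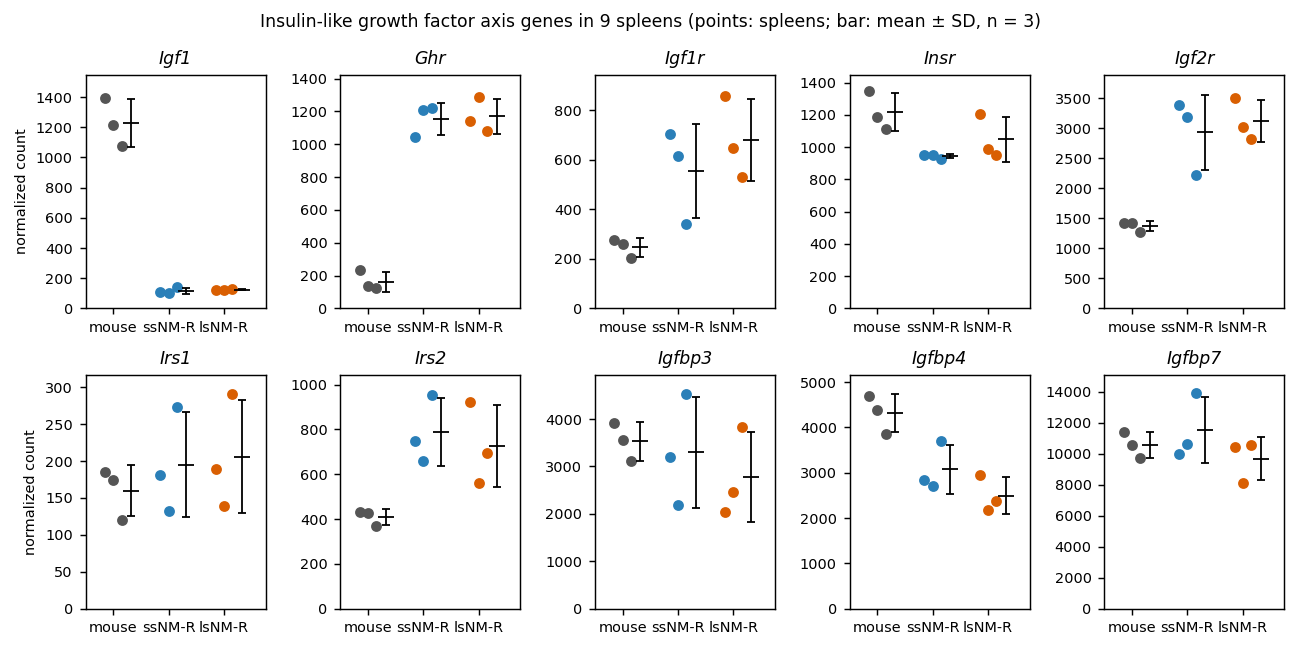
Normalized counts (vertical axis, from 0) of the 10 genes in each spleen, with mouse, ssNM-R and lsNM-R along the horizontal axis. Points are single spleens in the order of their numbers, and bars give the mean ± SD (n = 3); Igf1 lies near 120 in all NM-R spleens and above 1070 in all mice, and Ghr shows the opposite order.

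Igf1, at 87321010 to 87399792 of chromosome 10 (mm9), encodes the growth factor itself. The normalized counts of Igf1 were 1397, 1213 and 1075 in mice 1, 2 and 3. In ssNM-R 2, 3 and 6 they were 112, 102 and 141, and in lsNM-R 1, 4 and 5 they were 120, 122 and 129. Every NM-R spleen was thus far below every mouse spleen, and the NM-R spleens lay close together. The means were 1228 ± 161 for the 3 mice and 121 ± 13.4 for the 6 NM-Rs (SD), with a log2FC of -3.33 (SE 0.13, adjusted p = 1.50e-08 in limma). Behind these values stood between 1025 and 1392 reads per mouse and between 68 and 223 reads per NM-R. By cohort the log2 fold change was -3.37 for ssNM-R and -3.30 for lsNM-R, 2 comparisons that share the mice.

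In the mouse gene model, 9921 bases of Igf1 are exonic and 6.20% of them are coding, most of the remainder being untranslated. The count of a gene depends on how much untranslated sequence its model holds, and the NM-R model was not analysed here. Across 9085 genes with a mouse model, the coding share and the log2 fold change between NM-R and mouse had a Spearman's rho of 0.16, where genes are not independent replicates. The 141 genes within 5 percentage points of the coding share of Igf1 had a median log2 fold change of -0.53, in the direction of Igf1 and smaller. The part of the gene models in the Igf1 result was not tested.

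Ghr encodes the growth hormone receptor and lies at 3267760 to 3533492 of chromosome 15 (mm9). The normalized counts of Ghr were 233, 136 and 122 in the mice, 1043, 1206 and 1218 in the ssNM-Rs and 1144, 1285 and 1079 in the lsNM-Rs. The lowest NM-R spleen was more than 4 times as high as the highest mouse, and the cohorts overlapped. The mean was 163 ± 60.5 for the 3 mice and 1162 ± 90.9 for the 6 NM-Rs (SD), with a log2FC of 2.88 (SE 0.18, adjusted p = 3.02e-07 in limma). The 1294 genes with a coding share within 5 points of that of Ghr (22.4%) had a median log2 fold change of -0.29, opposite in sign to Ghr. The part of the gene models in the Ghr result was not tested. Ghr is highly expressed in hepatocytes and adipocytes, and their markers are given with the other cell types.

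Igf1r encodes the receptor tyrosine kinase for IGF-1 and lies at 75097713 to 75371484 of chromosome 7 (mm9). Its normalized counts were 278, 260 and 202 in the mice, 703, 616 and 340 in the ssNM-Rs and 857, 648 and 532 in the lsNM-Rs. Every NM-R spleen exceeded every mouse, although ssNM-R 6 came close to mouse 1. The mean of NM-Rs (616 ± 173, SD, n = 6) exceeded that of mice (247 ± 39.4, SD, n = 3), with a log2FC of 1.27 (SE 0.24, adjusted p = 6.52e-04 in limma). The mouse model of Igf1r is almost all coding (92.9% of 4476 exonic bases), and the 286 genes with a like share had a median log2 fold change of 0.55. The part of the gene models in this difference was not tested.

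Igf2r, at 12875272 to 12962530 of chromosome 17 (mm9), encodes the mannose 6-phosphate receptor, which removes IGF-2 from the cell surface and carries enzymes to lysosomes. The normalized counts of Igf2r were 1423, 1421 and 1272 in the mice, 3391, 3187 and 2216 in the ssNM-Rs and 3507, 3018 and 2824 in the lsNM-Rs. Again all NM-R spleens were above all mice, with ssNM-R 6 the lowest of the NM-Rs. The fold was 2.20 (log2FC 1.13, SE 0.14, adjusted p = 3.36e-05 in limma), and genes with a like coding share had a median of 0.23 on the log2 scale. The part of the gene models in the Igf2r result was not tested.

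Insr, at 3150922 to 3279617 of chromosome 8 (mm9), encodes the insulin receptor, which can form hybrids with IGF1R. The normalized counts of Insr were 1347, 1189 and 1115 in the mice, 952, 953 and 929 in the ssNM-Rs and 1208, 986 and 952 in the lsNM-Rs. The ssNM-Rs lay below all mice, whereas lsNM-R 1 lay among the mice. The difference was small, from 1217 ± 118 (SD, n = 3) to 997 ± 105 (SD, n = 6), with a log2FC of -0.29 (SE 0.10, adjusted p = 0.0213 in limma). It passed the threshold for ssNM-R against mouse (adjusted p = 0.0156) and missed it for lsNM-R (adjusted p = 0.108), while the cohorts themselves differed by 0.14 on the log2 scale with an unadjusted limma p of 0.243. The call of Insr was lost when mouse 1 (adjusted p = 0.0969) or mouse 2 (adjusted p = 0.0522) was left out and under 2 other scalings, whereas the calls of Igf1, Ghr, Igf1r, Igf2r, Irs2 and Igfbp4 between NM-R and mouse held in all 19 alternatives.

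Because the values of 2 genes in 1 library share a size factor, ratios within a spleen were compared as well, over 4 pairs of genes. The ratio of Igf1 to Igf1r counts was 5.03, 4.67 and 5.31 in the mice. It was 0.160, 0.166 and 0.414 in the ssNM-Rs and 0.140, 0.188 and 0.242 in the lsNM-Rs. In each mouse Igf1 thus had more counts than Igf1r, and in each NM-R fewer. The log2 ratio was lower in NM-Rs by a difference of -4.61 (exact permutation test, 2-sided, p = 0.0238, adjusted p = 0.0476 over the 4 ratios). The unadjusted value is the smallest p that 3 mice and 6 NM-Rs allow. Every NM-R was below every mouse for Igf1 and above every mouse for Igf1r. The p of their ratio was thereby fixed in advance and adds no support to the results of the 2 genes. The ratio of Igf1r to Insr was between 0.182 and 0.218 in mice and between 0.366 and 0.739 in NM-Rs, a log2 difference of 1.56 (exact permutation test, p = 0.0238, adjusted p = 0.0476). The 2 ratios share Igf1r and are not independent of each other. They do not depend on the size factors but still depend on the gene models of each species.

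The ratio of Igf2r to Igf1r was between 5.12 and 6.28 in mice and between 4.09 and 6.52 in NM-Rs, and these ranges overlapped. Its log2 difference was -0.15 (exact permutation test, p = 0.333, adjusted p = 0.333). For Irs1 to Irs2 the ratio was between 0.326 and 0.430 in mice and between 0.201 and 0.419 in NM-Rs, with a log2 difference of -0.58 (exact permutation test, p = 0.0714, adjusted p = 0.0952). Only lsNM-R 5, at 0.419, reached the range of the mice. Between lsNM-R and ssNM-R the exact permutation p of the 4 ratios was between 0.3 and 0.8, in a design of 3 against 3 whose smallest p is 0.1.

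**Figure D2:**
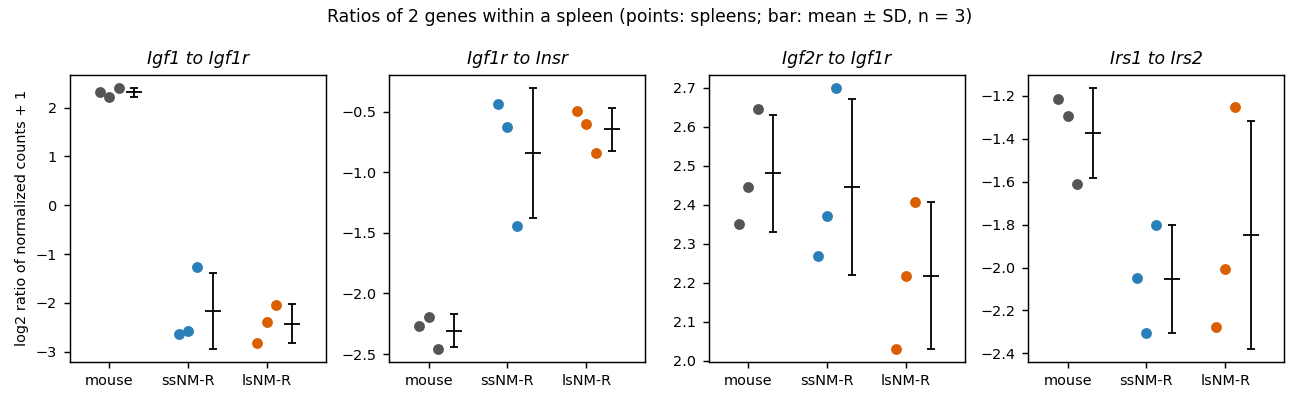
Log2 ratio of the counts of 2 genes within a spleen (vertical axes, which differ between panels and do not start at 0) in mouse, ssNM-R and lsNM-R, with points for spleens and bars for the mean ± SD (n = 3). The groups of the 2 species do not overlap for Igf1 to Igf1r and Igf1r to Insr, and they overlap for Igf2r to Igf1r and Irs1 to Irs2.

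Downstream of the receptors, the substrates Irs1 and Irs2 recruit PI3K once phosphorylated. Irs2, at 10986980 to 11008458 of chromosome 8 (mm9), had normalized counts of 431, 427 and 370 in the mice, 751, 658 and 955 in the ssNM-Rs and 922, 562 and 694 in the lsNM-Rs. All NM-R spleens were above all mice, by 1.85-fold in the means (log2FC 0.86, SE 0.17, adjusted p = 8.16e-04 in limma). Irs2 has a mouse model that is 98.5% coding, and the 125 genes with a like share had a median log2 fold change of 0.84, about that of Irs2. Whether Irs2 departs from such genes was not tested. Irs1, at 82229676 to 82287991 of chromosome 1 (mm9), had normalized counts of 186, 174 and 121 in the mice, 181, 132 and 273 in the ssNM-Rs and 189, 139 and 290 in the lsNM-Rs. The ranges of Irs1 overlapped, and its log2 fold change of 0.28 had a 95% interval from -0.35 to 0.91 (adjusted p = 0.372 in limma).

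The binding proteins carry IGFs and limit their access to the receptor. Igfbp4, at 98902558 to 98913969 of chromosome 11 (mm9), had normalized counts of 4690, 4394 and 3863 in the mice, 2835, 2698 and 3699 in the ssNM-Rs and 2945, 2173 and 2369 in the lsNM-Rs. The highest NM-R, ssNM-R 6, lay just below the lowest mouse. The mouse mean was 1.55 times the NM-R mean (log2FC -0.65, SE 0.13, adjusted p = 0.00132 in limma). The call for ssNM-R alone (adjusted p = 0.0143) was lost without mouse 1 (adjusted p = 0.0528) or without ssNM-R 3 (adjusted p = 0.0578), and that for lsNM-R (adjusted p = 9.68e-04) was kept with each spleen left out.

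Igfbp3, the main carrier of IGFs in serum, lies at 7106089 to 7113926 of chromosome 11 (mm9). Its normalized counts were 3912, 3561 and 3107 in the mice, 3189, 2193 and 4518 in the ssNM-Rs and 2037, 2452 and 3841 in the lsNM-Rs. The NM-R spleens spread on both sides of the mice, and the log2 fold change of -0.27 had a 95% interval from -0.81 to 0.27 (adjusted p = 0.321 in limma). Igfbp7, at 77778265 to 77837070 of chromosome 5 (mm9), is a low-affinity binder made mostly by stromal and endothelial cells. Its normalized counts were 11430, 10571 and 9756 in the mice, 9967, 10620 and 13947 in the ssNM-Rs and 10438, 8096 and 10551 in the lsNM-Rs. The means of Igfbp7 were nearly the same, at 10586 ± 837 for the 3 mice and 10603 ± 1892 for the 6 NM-Rs (SD), with a 95% interval of the log2 fold change from -0.33 to 0.30 (adjusted p = 0.936 in limma).

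Within the mouse spleen, levels of different genes were compared after division by the exonic length of the GENCODE mouse model. The paper does not name the annotation used for counting, so the counted lengths may differ from these. Normalized counts per kilobase of exon were 8727 ± 690.2 for Igfbp7, 1827 ± 177 for Igfbp4 and 1127 ± 129 for Igfbp3 (SD, n = 3 for each value of this order). By these lengths the binding proteins were the most abundant transcripts of the axis in mouse spleen, and they did not overlap with each other or with the other genes. Igf2r (145 ± 9.16), Insr (126 ± 12.2) and Igf1 (124 ± 16.3) followed, and the ranges of these neighbours overlapped. Irs2 came next at 102 ± 8.50, below the range of Igf1, and Igf1r was at 55.1 ± 8.81. Ghr (18.1 ± 6.68) and Irs1 (17.5 ± 3.79) were lowest and overlapped. Per kilobase of coding sequence Igf1 would rank 4 instead of 6, since so little of its model is coding. No such order was made in NM-Rs, whose gene lengths were not analysed here.

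The comparison of lsNM-R with ssNM-R asked whether the axis changes with spleen size inside the species. Of the 10 genes, 0 passed the threshold in limma, 0 had an unadjusted p under 0.05 and 0 had cohorts that did not overlap. Over the whole table limma and edgeR called 0 genes, while DESeq2 called 41 higher and 16 lower, 0 of the axis genes among them. Of all genes, 8.79% had an unadjusted limma p under 0.05 and 13.1% had cohorts that did not overlap. The smallest p belonged to Igfbp4, at 2495 ± 401 in lsNM-Rs and 3077 ± 543 in ssNM-Rs (SD, n = 3 each), with a log2 difference of -0.30 (95% interval -0.65 to 0.05, unadjusted p = 0.0823, adjusted p = 0.606 in limma). For Igf1 the interval of the difference was -0.27 to 0.42, and for Ghr it was -0.46 to 0.49. Differences between cohorts as large as those of these genes between species lie outside the intervals. For Igf1r (0.33, interval -0.28 to 0.95) and Irs1 (0.08, interval -0.65 to 0.80) larger differences remain possible at this number of spleens.

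**Figure D3:**
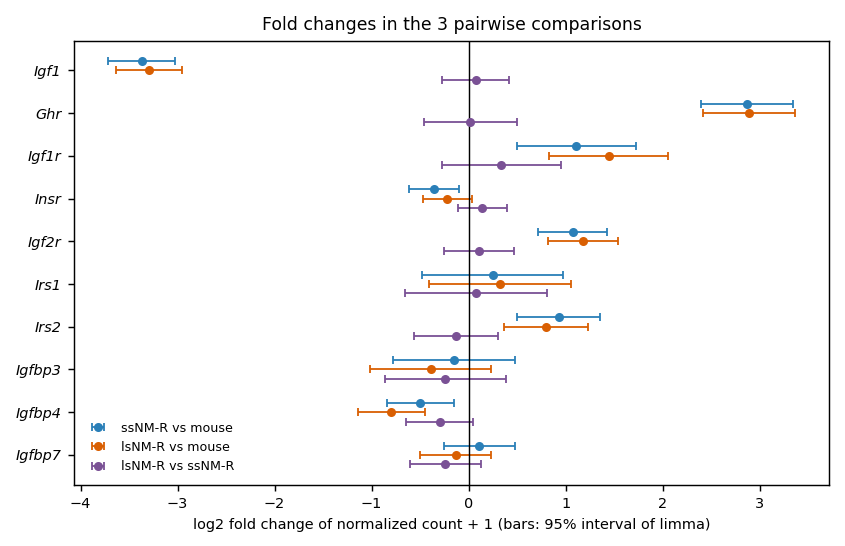
Log2 fold change of normalized count + 1 (horizontal axis) of the 10 genes for ssNM-R against mouse, lsNM-R against mouse and lsNM-R against ssNM-R, with bars for the 95% interval of limma. All intervals of lsNM-R against ssNM-R include 0, and Igf1 and Ghr lie farthest from 0 against mice, near -3.33 and 2.88.

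The NM-R spleens differed among themselves in ways that did not follow the cohorts. Among the 6 NM-Rs, ssNM-R 6 was the highest for 5 members (Igf1, Irs2, Igfbp3, Igfbp4 and Igfbp7) and the lowest for 3 (Igf1r, Insr and Igf2r), 8 of 10, where it was highest or lowest for 42.4% of all genes. The receptors Igf1r, Insr and Igf2r were in turn all highest in lsNM-R 1, the spleen that is highest for 18.4% of all genes. ssNM-R 6 also stood apart in hepatocyte markers, with a summed level of 3431 against 423 to 1216 in the other NM-Rs. Its smooth muscle markers summed to 33800 against 15865 to 27689. Their part in the values of ssNM-R 6 was not tested. Without ssNM-R 6 the counts of members higher (4) and lower (3) than in mice were the same, and the log2 fold change was -3.40 for Igf1 and 2.86 for Ghr.

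ssNM-R 6 is also one of 3 NM-R libraries of at least 16883689 reads, with lsNM-R 4 and 5, while ssNM-R 2, ssNM-R 3 and lsNM-R 1 held at most 8985705. Igf1 was higher in the deeper libraries (122 to 141) than in the shallower ones (102 to 120), and Igf2r was lower (2216 to 3018 against 3187 to 3507), both without overlap. This held for 2 of the 10 genes and for 14.8% of all genes. Igf1r lay between 340 and 648 in the deeper libraries and between 616 and 857 in the shallower ones. The mean of Igf1 was 130 in the deeper and 111 in the shallower libraries, beside 1228 in mice. For Igf2r the means were 2686 and 3362, beside 1372 in mice, and for Igf1r 507 and 725, beside 247. Against mice both classes lay on the same side for each of these genes. The part of depth in the differences between species was not tested. With the depth class as a term, 0 members passed the threshold between the cohorts, and neither did any of all 12946 genes. A class holds only 1 spleen of one of the cohorts, so the cohorts were not compared within it.

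**Figure D4:**
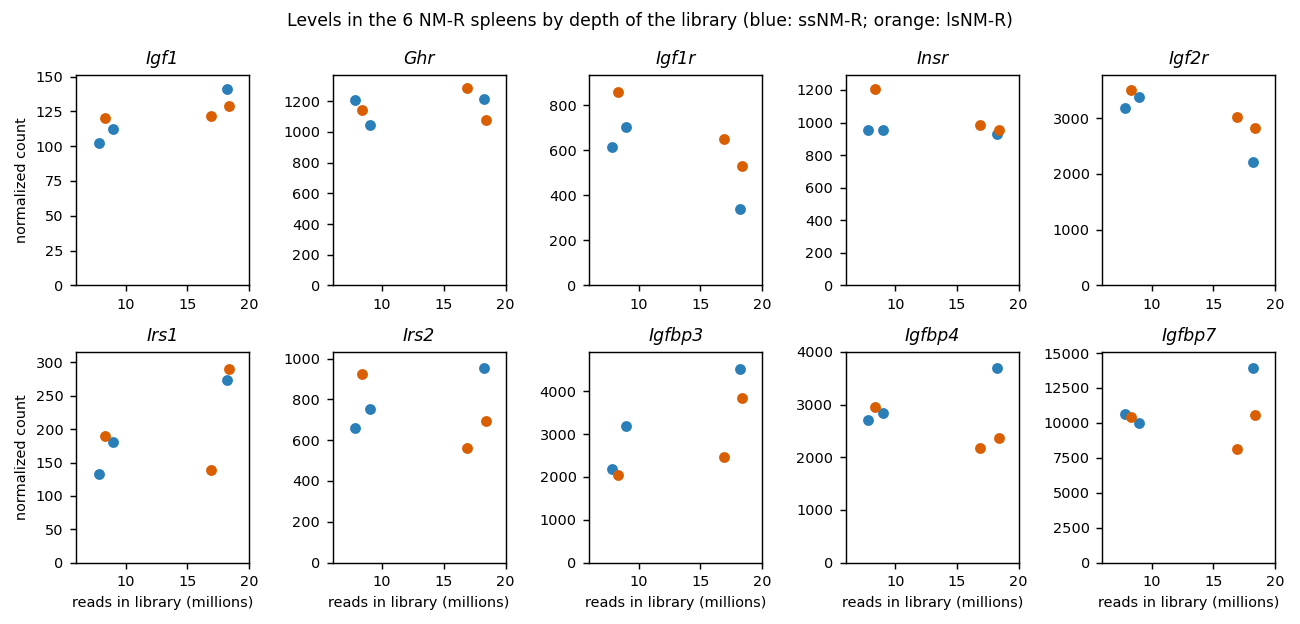
Normalized counts of the 10 genes (vertical axes, from 0) in the 6 NM-R spleens against the depth of the library (horizontal axis, recovered reads on a linear scale that starts above 0), with ssNM-R in blue and lsNM-R in orange. The 3 deeper libraries are above the 3 shallower ones for Igf1 and below them for Igf2r, and overlap with them for the other genes.

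In the mice the 10 genes shared one order, with mouse 1 the highest and mouse 3 the lowest for each of them. Mouse 1 was the highest for 41.3% and mouse 3 the lowest for 37.1% of all genes. The summed level of erythroid markers ran the other way, with 24469 in mouse 1, 55622 in mouse 2 and 69763 in mouse 3. T cell and adipocyte sums also rose from mouse 1 to mouse 3. Macrophage sums fell in the order of the genes, with 88123, 76763 and 70916 in mice 1, 2 and 3. Fibroblast, smooth muscle, endothelial and granulocyte sums fell in that order too, and B cell, hepatocyte and pancreas sums followed neither order. The part of these cell types in the order of the mice was not tested, and the ratio of Igf1 to Igf1r did not follow that order.

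The labelled tissue was checked with marker lists of the cell types a spleen sample can hold, summed over the listed genes. Macrophages are a local source of Igf1, and their 12 markers summed to between 70916 and 88123 in mice and between 82344 and 114731 in NM-Rs. Of these 5 were higher and 4 lower in NM-R. Siglec1 and C1qa had the highest log2 fold changes, 2.58 and 1.78. Adgre1, which encodes F4/80, and Cd163 had the lowest, -5.30 and -3.29. The part of macrophages in the level of Igf1 was not tested. Fibroblast markers summed to between 11843 and 13758 in mice and between 12111 and 20465 in NM-Rs (3 of 10 higher, 4 lower). Smooth muscle markers were between 6264 and 8215 and between 15865 and 33800 (3 of 6 higher, 1 lower). Endothelial markers were between 19736 and 23838 in mice and between 7265 and 8952 in NM-Rs, with 6 of 9 lower and 1, Emcn, higher (log2FC 3.18).

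B cell markers (8 of 8 lower) summed to between 55893 and 56981 in mice and between 2678 and 7152 in NM-Rs, and T cell markers (7 of 7 lower) to between 9277 and 10036 and between 3075 and 5816. Erythroid markers (9 of 9 higher) were between 24469 and 69763 in mice and between 154394 and 229291 in NM-Rs, and granulocyte markers (5 of 6 higher and 1, Csf3r, lower) between 4074 and 5491 and between 15653 and 20273. Each axis gene is measured in this changed mixture, and the part of cell composition in the differences was not tested.

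Hepatocyte markers, of which 3 of 9 were higher and 2 lower in NM-R, were low, between 156 and 351 in mice and between 423 and 3431 in NM-Rs, and Cyp2e1 was at or under 3 reads in each NM-R. Adipocyte markers (3 of 5 higher) summed to between 16.1 and 48.2 in mice and between 103 and 306 in NM-Rs. Pancreas markers (2 of 4 higher) were between 0 and 19.9 in mice, with Cpa1, Cel and Cpb1 at the floor, and between 103 and 172 in NM-Rs, with Gcg at the floor. The summed levels of the hepatocyte and adipocyte lists were thus higher in NM-Rs, as Ghr was. However, 4 of the 9 hepatocyte markers, Alb among them, did not pass the threshold. The hepatocyte sum also depended on Ahsg (log2FC 4.34), at 9.03 to 23.9 in mice and 237 to 542 in NM-Rs. In ssNM-R 2, which had the lowest NM-R sum of 423, Ahsg made up 294 of it. Ghr in ssNM-R 6, which had the highest sums of both lists, was 1218, beside 1043 to 1285 in the other NM-Rs. The part of either cell type in the level of Ghr was not tested.

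The wider pathway was followed through 89 further genes, of which 67 were in the table. Between NM-R and mouse 22 were higher, 26 lower and 19 did not pass. The share that passed was 71.6%, beside 78.5% of the table, and the median log2 fold change was -0.02. The counts in the single lists below stand beside 39.7% of all genes higher and 38.8% lower, and the lists are small. Between lsNM-R and ssNM-R, 0 of the 67 genes passed the threshold, beside 0 of all genes. Genes not listed under these symbols, and not analysed here, include Ins1, Ins2, Gh, Shc1, Pik3ca, Stat5a, Stat5b, Socs1, Socs2 and Rps6kb1.

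Of the other binding proteins, 3 of 4 were higher in NM-R and 0 lower. Igfbp2, known as a serum carrier, was at 20.1, 41.3 and 23.1 in the mice and between 108 and 195 in NM-Rs (log2FC 2.40, SE 0.27, adjusted p = 2.03e-05 in limma). Igfbp5, which binds extracellular matrix, rose from 1002 ± 81.2 (SD, n = 3) to 2092 ± 850.0 (SD, n = 6; log2FC 0.98, adjusted p = 0.00915 in limma), with ssNM-R 6 highest at 3612. Igfbp6, with a preference for IGF-2, was 2.21-fold higher (log2FC 1.04, adjusted p = 0.0109 in limma). The remaining one, Igfbp1, had no read in mice and at most 13 reads in an NM-R. Of the members, Igfbp4 was lower, and Igfbp3 and Igfbp7 did not pass the threshold.

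Among ligands, Igf2 was at 200.3 ± 17.3 in mice and 179 ± 108 in NM-Rs, where it ranged from 87.5 to 383, and did not pass (log2FC -0.34, adjusted p = 0.453 in limma). Igfals, the acid-labile subunit that stabilizes circulating IGF complexes, was low, with 7 to 34 reads per library (adjusted p = 0.0184 in limma). All 3 genes for the Igf2 mRNA binding proteins were higher in NM-R, Igf2bp2 at 4.08-fold (log2FC 2.02) and Igf2bp3 at 6.19-fold (log2FC 2.61). Igf2bp1 was at or under 1 read in each mouse and had at most 26 reads in an NM-R.

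Of the 7 genes for proteases that cut binding proteins, and their inhibitors, 3 were higher and 2 lower. Stc2, an inhibitor of the protease pappalysin, was at 240.5 ± 17.2 in mice and 867 ± 150.5 in NM-Rs (log2FC 1.83, adjusted p = 1.99e-06 in limma). Pappa, the protease itself, which cuts IGFBP-4, was at 52.9 ± 15.9 and 143.5 ± 24.3 (log2FC 1.45, adjusted p = 1.38e-04 in limma). The genes for the protease and for its inhibitor were thus both higher in NM-R, and that for the substrate, Igfbp4, was lower. Adam28 fell from 34.5 to 1.66 normalized counts, with at most 6 reads in an NM-R, so that its fold depends on the added count. Htra1 had a log2 fold change of -0.02.

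Of the 2 further receptors, Insrr, encoding the insulin receptor-related receptor, was at 42.1, 28.3 and 29.4 in the mice and between 120 and 223 in NM-Rs (log2FC 2.17, SE 0.23, adjusted p = 1.14e-05 in limma). Prlr, the prolactin receptor and a relative of Ghr, went the other way from Ghr, from 30.6 ± 13.0 to 1.44 ± 1.10 normalized counts (adjusted p = 1.56e-05 in limma), with at most 5 reads in an NM-R. In the growth hormone branch 1 of 5 genes passed, namely Ptpn6, the phosphatase SHP-1 of blood cells, which was 1.97-fold lower. Jak2, the kinase bound to the growth hormone receptor, had a log2 fold change of 0.11 (adjusted p = 0.276 in limma), Cish, a gene induced by growth hormone, 0.20 (adjusted p = 0.273 in limma), and Ptpn11 0.08 (adjusted p = 0.479 in limma). By cohort, Jak2 passed for lsNM-R against mouse (log2FC 0.25, adjusted p = 0.0415 in limma) and not for ssNM-R (-0.04, adjusted p = 0.738 in limma).

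Among 11 adaptors at the receptors, 3 were higher and 6 lower. Gab1, a docking protein for PI3K, was at 342, 348 and 305 in the mice and between 1731 and 2244 in NM-Rs, 5.96-fold higher (log2FC 2.57, SE 0.10, adjusted p = 1.05e-08 in limma). Grb14, an inhibitor of the insulin receptor, was 2.02-fold higher (log2FC 0.93). Sh2b2 and Sh2b3, adaptors of JAK and receptor kinases that are abundant in lymphoid and blood cells, were lower with log2 fold changes of -2.61 and -1.78. The part of these cells in their levels was not tested. All 3 genes of the list of phosphatases, ligases and insulin degradation were lower. Ptpn1, encoding the insulin receptor phosphatase PTP1B, fell from 3532 ± 171 to 553 ± 67.3 (log2FC -2.68, adjusted p = 1.68e-08 in limma), and Nedd4, a ubiquitin ligase, from 5941 ± 484 to 531 ± 94.7 (log2FC -3.50, adjusted p = 4.92e-09 in limma). Ide, encoding the insulin-degrading enzyme, had a smaller difference (log2FC -0.70).

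In the PI3K, AKT and FOXO list 4 of 14 genes were higher and 6 lower. Foxo1 and Foxo4, transcription factors that AKT keeps out of the nucleus, differed in opposite directions. Foxo1 was at 2753, 2549 and 2590 in the mice and between 532 and 869 in NM-Rs (log2FC -2.02, adjusted p = 5.21e-07 in limma). Foxo4 was at 629, 824 and 888 in the mice and between 2887 and 4060 in NM-Rs (log2FC 2.10, adjusted p = 3.95e-07 in limma). Inppl1, encoding the lipid phosphatase SHIP2, was 2.78-fold higher, and Pik3cd, the catalytic subunit of leukocytes, was 3.93-fold lower. Foxo1 and Pik3cd are abundant in lymphocytes, whose markers were lower as given above. The part of lymphocytes in the levels of these genes was not tested.

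The mTOR list had 4 of 16 genes higher and 7 lower. Deptor, an inhibitor of mTOR, fell from 475 ± 60.6 to 26.8 ± 7.86 normalized counts (log2FC -4.16, adjusted p = 3.97e-07 in limma). Sesn1, another brake on mTORC1, fell from 2528 ± 354 to 541 ± 61.9 (log2FC -2.22). Rheb, the activator of mTORC1, was 2.73-fold higher (log2FC 1.45), and Tbc1d7, a subunit of the complex that inhibits Rheb, was 3.84-fold higher (log2FC 1.94). Genes that act against mTORC1 were thus found among both the higher and the lower genes named here.

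**Figure D5:**
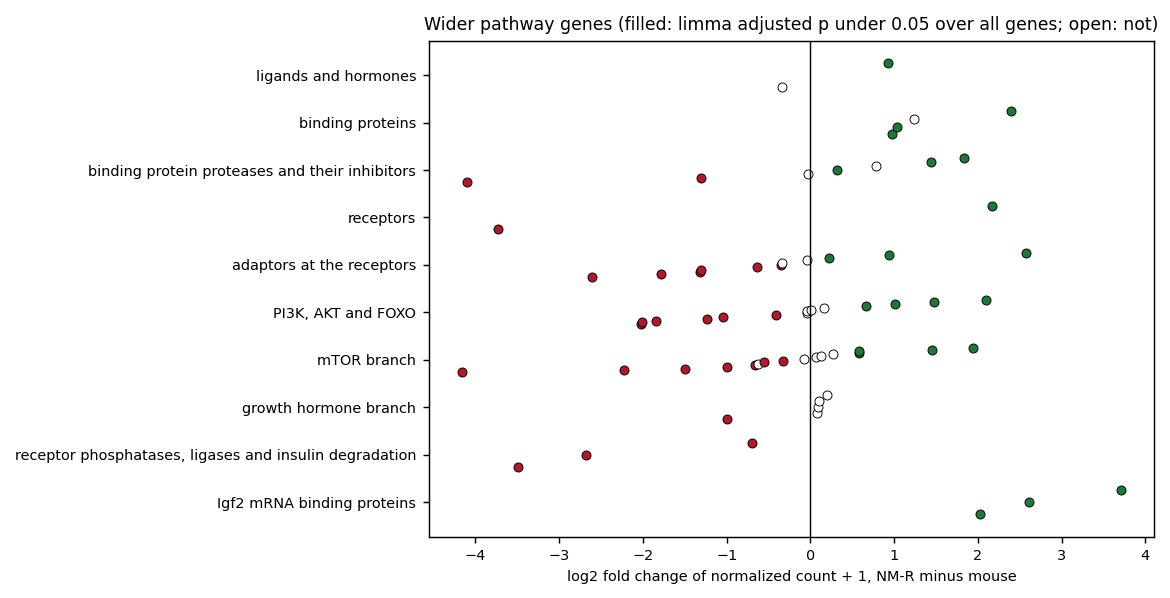
Log2 fold change between NM-R and mouse (horizontal axis) of the 67 further genes by list (vertical axis), filled where the limma adjusted p over all genes is under 0.05 and open where it is not. Both directions occur in the adaptor, PI3K and mTOR lists, while binding proteins lie to the right of 0 and the 3 phosphatase, ligase and degradation genes to the left.

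Between the cohorts, 8 of the 67 genes had an unadjusted limma p under 0.05, beside 8.79% of all genes. The smallest belonged to Sos1, the exchange factor that links receptors to RAS, which was at 862, 872 and 788 in the ssNM-Rs and 1023, 1140 and 1176 in the lsNM-Rs. Its cohorts did not overlap, with a log2 difference of 0.40 (unadjusted p = 0.00170, adjusted p = 0.442 in limma), and it was the one gene of the list that DESeq2 called. Jak2 (0.29, unadjusted p = 0.0160, adjusted p = 0.488 in limma) and Nedd4 (0.37, unadjusted p = 0.0197, adjusted p = 0.497 in limma) followed.

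Over the 6 NM-R spleens the 3 genes whose log2 values were most like those of Igf1 were Cfdp1 (Pearson's r = 0.992), Pttg1ip (0.983) and Leng1 (0.981), chosen from 9584 genes with a mean of at least 50. In all, 70 genes exceeded an r of 0.9, and with 6 spleens that also differ in depth these values only describe a shared order. Cfdp1 was at 392, 356 and 476 in ssNM-R 2, 3 and 6 and at 403, 413 and 435 in lsNM-R 1, 4 and 5.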

How the data were processed

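RNA-seq libraries of 9 spleens were grouped by the organism and spleen size of the labels, with 3 spleens each for mouse, ssNM-R and lsNM-R. According to the study's methods and processing notes, the authors aligned mouse reads to mm9 and NM-R reads to a genome of that species (STAR 2.5.3a), counted them per gene with HTSeq 0.10.0, gave NM-R genes mouse names and scaled each library by its DESeq2 size factor. The deposited signal values are these normalized counts. Whether counting used strand is not given in the sources used here. All values (100%, tolerance 0.001) were whole multiples of one step per library, which returned between 7815326 and 18387599 whole reads.

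Values as log2(normalized count + 1) were fitted in limma 3.58.1 (R 4.3.3) with 1 mean per group over 9 spleens, an eBayes trend and 2-sided p-values that were Benjamini-Hochberg adjusted over 12946 genes. Ratios were compared by exact permutation over spleens. Positions, lengths and coding shares are those of GENCODE models on mm9. Whether the authors counted against the same models is not stated in the paper. The members, lists and tests were chosen with earlier results of these data known. Genes named are the 10 members and, per list, the 2 highest and 2 lowest log2 fold changes among genes with a mean of at least 20 in the higher species, the 3 smallest p between cohorts, and the 3 genes most like Igf1. Igfals, Igfbp1 and Igf2bp1 were added after their values were seen. Marker lists held genes not listed in the table (among them Cd68, Spic, Synpo2, Tek, Fcer2a, Cd8a, Cd8b1, Elane, Prtn3, Camp, Ngp, Ctrb1, Pnlip and Cela2a). Alternatives were pseudocounts of 0.5 and 5, a mean of at least 10, 3 other scalings, no variance trend, only the compared groups, edgeR 4.0.16 and DESeq2 1.42.0 on the whole reads, age, depth class, a replicate block, and leaving out single spleens. The fits were tested on simulated data.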

Additional observations from a re-analysis of the deposited data

Results flagged for a closer look

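Among 42 genes named or listed as members, 5 had 1 of the 6 NM-R spleens apart from the others by Dixon's ratio, which chance reaches in about 5% of groups. The share of all genes that reach this ratio is not given here, so the count shows nothing particular to these genes. Of all genes, 42.4% were highest or lowest in ssNM-R 6 among the NM-Rs. For Insr, lsNM-R 1 had 1208 normalized counts against 929 to 986 elsewhere among the NM-Rs, so that leaving out lsNM-R 1 gave Insr an adjusted p of 0.0207 for lsNM-R against mouse. ssNM-R 6 stood apart for Igfbp6 (339, others 116 to 196), Deptor (11.4, others 27.3 to 32.6) and Ide (379, others 599 to 662). For Igf2bp3, lsNM-R 4 had 126 against 77.9 to 88.6.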

How the results depend on the processing

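In all, 56 results gave 1092 alternative values, of which 1033 were rated the same. For a gene or a ratio this meant the same direction and side of the threshold. A count of genes could move within a set tolerance. The count of members lower in NM-R was thus rated the same at 2 and at 3, although Insr lost its call in some alternatives. Between NM-R and mouse the log2 fold change ranged over the alternatives from -3.47 to -3.24 for Igf1, 2.70 to 3.16 for Ghr, 1.14 to 1.57 for Igf1r, 1.07 to 1.30 for Igf2r, 0.77 to 0.96 for Irs2 and -0.72 to -0.55 for Igfbp4. Insr missed the threshold with the same upper quartile (-0.19, adjusted p = 0.104), quantile normalization (-0.21, adjusted p = 0.0734) and the replicate block (-0.22, adjusted p = 0.0797), and for ssNM-R with the upper quartile (adjusted p = 0.0650) and the block (adjusted p = 0.0639); the cause was not tested. Upper-quartile scaling moved the median of all genes from 0.0097 to 0.103. The numbers of mice and NM-Rs name different animals, their deviations had correlations between -0.0045 and 0.0101, and the replicate block gave 4936 higher and 4898 lower genes against 5134 and 5024, with Igfbp3 called lower (-0.64, adjusted p = 0.00526; lsNM-R -0.94, adjusted p = 0.0111). With the block 4 members were higher and 3 lower. No paired analysis was possible between lsNM-R and ssNM-R because they share no number. With each spleen left out, the members lower in ssNM-R numbered 1 to 3, with 1 without mouse 1. DESeq2 called 1 wider pathway gene higher in lsNM-R. With a spleen left out the log2 ratio difference lay between -4.81 and -4.50 for Igf1 to Igf1r and between 1.49 and 1.71 for Igf1r to Insr, and with 1 cohort against mice it was -4.48 for ssNM-R and -4.74 for lsNM-R, and 1.47 and 1.66 (exact permutation tests). For both, the adjusted p of the exact permutation test stayed at 0.0476 without lsNM-R 5. It was between 0.0714 and 0.2 in the other 10 of these subsets. Fewer splits of the spleens exist in every subset, the one without lsNM-R 5 included. In that subset Irs1 to Irs2 also had an adjusted p of 0.0476, and the adjustment is shared by the 4 ratios. With a spleen left out the log2 ratio difference of Irs1 to Irs2 lay between -0.72 and -0.50. Directions of uncalled differences turned for Igfbp7 between NM-R and mouse with the upper quartile (0.082) and edgeR (0.019), for Igfbp7 in ssNM-R with quantile normalization (-0.11), and between the cohorts with depth class for Igf1 (-0.00219), Ghr (-0.0099) and Irs1 (-0.074) and with age for Irs1 (-0.032). With a spleen left out they turned for Igfbp7 (-0.086 to 0.049 between NM-R and mouse, -0.038 to 0.20 in ssNM-R), Irs1 (-0.027 to 0.49) and Igfbp3 (-0.41 to 0.11) in ssNM-R, and between the cohorts for Igf1 (-0.026 to 0.20), Ghr (-0.055 to 0.073), Igf2r (-0.083 to 0.22), Irs1 (-0.20 to 0.35), Irs2 (-0.32 to 0.039) and Igfbp3 (-0.50 to 0.017). A fit of only the compared groups holds all 9 spleens for NM-R against mouse and gave no separate value there. Of the members, Igf1 had the fewest reads in NM-Rs, with as few as 68 in a library, and the part of depth in its values was not tested.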
